A study of Mus musculus with 6 samples.

Results

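The decay of the flow response describes how the difference between flow and no flow in bone cells altered during the hour after flow stopped. For each gene, flow minus no flow (the mean of both kinds of flow, log2) was taken at 1 h post-flow and reduced by the same difference at 0 h, and this quantity is called the interaction of flow and time. A negative interaction means that the flow samples were lower at 1 h than at 0 h relative to no flow. Each gene was represented by its brightest probe, genes with a mean log2 intensity above 6 over the arrays were kept, and a gene was a member when continuous and rest-inserted flow each had an interaction of the same sign. Of 5718 genes in this table, 3969 were members, 1995 with a negative and 1974 with a positive interaction, and in the other 1749 the signs were opposite. Both kinds of flow were compared with the same no flow arrays, so the shared sign was set by the rule and by shared arrays, and it is not a result. Phf2, a histone demethylase, lay just inside the minimum at a mean log2 intensity of 6.001 with an interaction of 0.27, and Zfp266, a zinc finger protein, just outside at 5.999 with 0.16.

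MC3T3-E1 cells, a mouse line of osteoblast precursors from skull bone (clone 14 in the study's methods), were shaken on an orbital shaker so that culture medium flowed over them. The regimens were no flow, 1 h of continuous flow, and rest-inserted flow made of 4 bouts of 5 min of flow, with 10 min of rest following each bout, and cells were harvested at 0 h or at 1 h post-flow. For each of these 6 conditions a pool of RNA from 3 experiments went onto 1 Illumina MouseWG-6 v2.0 array. Replicate arrays are lacking, and the variation among experiments was not measurable. All conditions shared the cell line, and whether no flow plates were also moved to the shaker is not given in the sources used here.

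Cells that feel fluid shear or tension transcribe immediate early genes within minutes, without first making new protein. Many of these transcripts are short-lived, and their products include transcription factors of the AP-1 family, phosphatases that switch off MAP kinases and proteins that destroy mRNA, so that the response limits itself. In bone cells, tension on the actin cytoskeleton also acts through serum response factor (SRF) and the coactivator YAP, whose known targets include the matricellular proteins Ccn1 and Ccn2.

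Promoter stretches of 4 members with an interaction at or below -0.5 are shown as examples of the motifs searched. The 4 were picked from the members with a match. Nup133, Pxdc1 and Zfp869 also had such stretches, which are not shown. The sequences are from RefSeq (GRCm38.p6), given on the gene's strand, and each lies upstream of a start that RefSeq gives for the gene. That of Srf is inside the gene's annotated span (chr17:46546838-46558267), which reaches beyond this start. Capitals mark a TATA box (TATAAA) in Ccn1, a cAMP response element (TGACGTCA) in Dusp1, and CArG boxes, the element bound by SRF, in Srf and Zfp36, with a TATA box on the opposite strand in Srf, and the marked motifs do not overlap.
Ccn1, chr3:145649993-145650022, minus strand: ctaggcaggcatTATAAAgggcgggctccc
Dusp1, chr17:26508596-26508627, minus strand: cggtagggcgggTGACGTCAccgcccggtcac
Srf, chr17:46556183-46556256, minus strand: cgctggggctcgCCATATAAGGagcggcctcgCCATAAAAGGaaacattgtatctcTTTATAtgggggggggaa
Zfp36, chr7:28379265-28379298, minus strand: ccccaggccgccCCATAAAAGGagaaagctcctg

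The motifs were searched on both strands of windows from 250 bases before to 50 bases after each start, together with the AP-1 site (TGANTCA). Of the 37 members at or below -0.5, 30 had a window, and a CArG box was found for 2 of them (Srf and Zfp36), a cAMP response element for 2 (Dusp1 and Nup133), an AP-1 site for 1 (Zfp869) and a TATA box for 4 (Ccn1, Junb, Pxdc1 and Srf). These 30 genes have 35 windows, of which 5.71% held a CArG box, 5.71% a cAMP response element, 2.86% an AP-1 site and 11.4% a TATA box. Among the 6036 windows of all genes of the table the shares were 1.41%, 3.40%, 4.52% and 7.07%, and among all 32851 windows of the reference 1.63%, 1.79%, 7.81% and 13.6%. The TATA box was thus above the first background and below the second. Of the 61 members at or above 0.5, 45 had a window, 0 of which held a CArG box or a cAMP response element, 2 an AP-1 site (Me1 and Mrps25) and 5 a TATA box. Of their 54 windows 3.70% held an AP-1 site and 9.26% a TATA box. A match is only a match of letters in this window.

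Detected probes numbered from 13472 to 14426 per array, and the median signal of detected probes lay between 105 and 123. The no flow array of 0 h had the most detected probes and the lowest median signal (105, beside 114 to 123 on the others). It also had the fewest values at the floor of 10 that the authors set (346), and the no flow array of 1 h the most (492). Every interaction rests on these no flow arrays, 1 at each time. Of 12 osteoblast markers, 5 were in the table, Col1a1, Col1a2, Sp7, Sparc and Bmp1. Runx2, Alpl, Bglap, Ibsp, Spp1, Postn and Pth1r were not in it. Of other cell types, 2 of 8 chondrocyte markers (Sox9 and Col2a1), 1 of 6 osteocyte markers (Pdpn) and 1 of 9 macrophage and osteoclast markers (Ctsk) were in the table, and 0 of 7 each for adipocytes, muscle and endothelium. Interactions of these markers ran from -0.24 for Col1a1 to 0.28 for Sox9.

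No gene passed the main test for the interaction. limma was fitted with all 6 arrays in 4 cells (flow or no flow, at 0 h or 1 h), in which the 2 kinds of flow stood in as repeats of flow and each no flow array was assumed to vary as the flow arrays did. With Benjamini-Hochberg adjustment over 15686 probes, 0 genes were called at an adjusted p under 0.05, and the smallest adjusted p was 0.537 (ND1). At an unadjusted p under 0.05, 348 of 5718 genes passed (6.09%), 185 lower (3.24%) and 163 higher (2.85%). With a constant variance prior 0 genes were called and 147 passed unadjusted (2.57%). The interactions that follow are therefore values measured on 6 arrays, and none of them passed this test.

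A further fit, added after the data were seen, paired the 0 h array with the 1 h array of each regimen. It gives the same interactions, has 1 residual degree of freedom, takes its spread from how far continuous and rest-inserted flow differ in their change, and assumes that the change without flow varies alike. limma then called 3 genes (0.0525%) with Benjamini-Hochberg adjustment over the same probes. They were Ccn1 (adjusted p = 0.011) and Ankrd1 (adjusted p = 0.034), both with a negative interaction, and ND1 (adjusted p = 0.036), with a positive one. Nothing in the labels says that the arrays of a regimen come from shared experiments, so these calls depend on the pairing. Adjusted p-values given for genes below are those of the main test.

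A size of 0.5 on the log2 scale, a 1.41-fold change, was chosen after the values were seen to describe the extremes. At this size 37 genes (0.647%) had an interaction at or below -0.5 and 61 (1.07%) at or above 0.5, and all of them were members. When the signals were scaled to equal medians in place of quantile normalization, which moved the median interaction of all genes from -0.0013 to 0.085, the counts were 17 and 106.

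The lowest interaction was that of Ccn1, a secreted matricellular protein that binds integrins. Its log2 intensity at 0 h was 8.39 without flow, 9.41 with continuous and 9.18 with rest-inserted flow. One hour later these were 8.30, 7.99 and 7.79. Both flow arrays were above no flow at 0 h and below it at 1 h, while the no flow arrays differed by 0.09. In folds over no flow, continuous flow was at 2.02 and then 0.803, and rest-inserted flow at 1.73 and then 0.70. The interaction was -1.32 (SE 0.17, unadjusted p = 0.000156, limma adjusted p = 0.785). Further probes of Ccn1, which read the same RNA, had interactions of -1.48 and -1.17.

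Ccn2, a matricellular protein that is also a target of TGF-beta, had a log2 intensity of 10.04 without flow, 11.90 with continuous and 11.05 with rest-inserted flow at 0 h. The same conditions gave 10.13, 10.48 and 10.34 at 1 h. Here the flow arrays were higher at both times, 3.63-fold and 2.01-fold over no flow at 0 h and 1.27-fold and 1.15-fold at 1 h. The interaction was -1.16 (SE 0.42, limma adjusted p = 0.785), and the other probe gave -1.02.

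Ankrd1, an ankyrin repeat protein and a known YAP target, had 10.44, 11.64 and 11.09 at 0 h for no flow, continuous and rest-inserted flow, and 10.15, 10.04 and 9.83 at 1 h. Its flow arrays were again the highest at 0 h and the lowest at 1 h. The interaction was -1.13 (SE 0.29, limma adjusted p = 0.785) and -1.34 in a further probe.

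**Figure D1:**
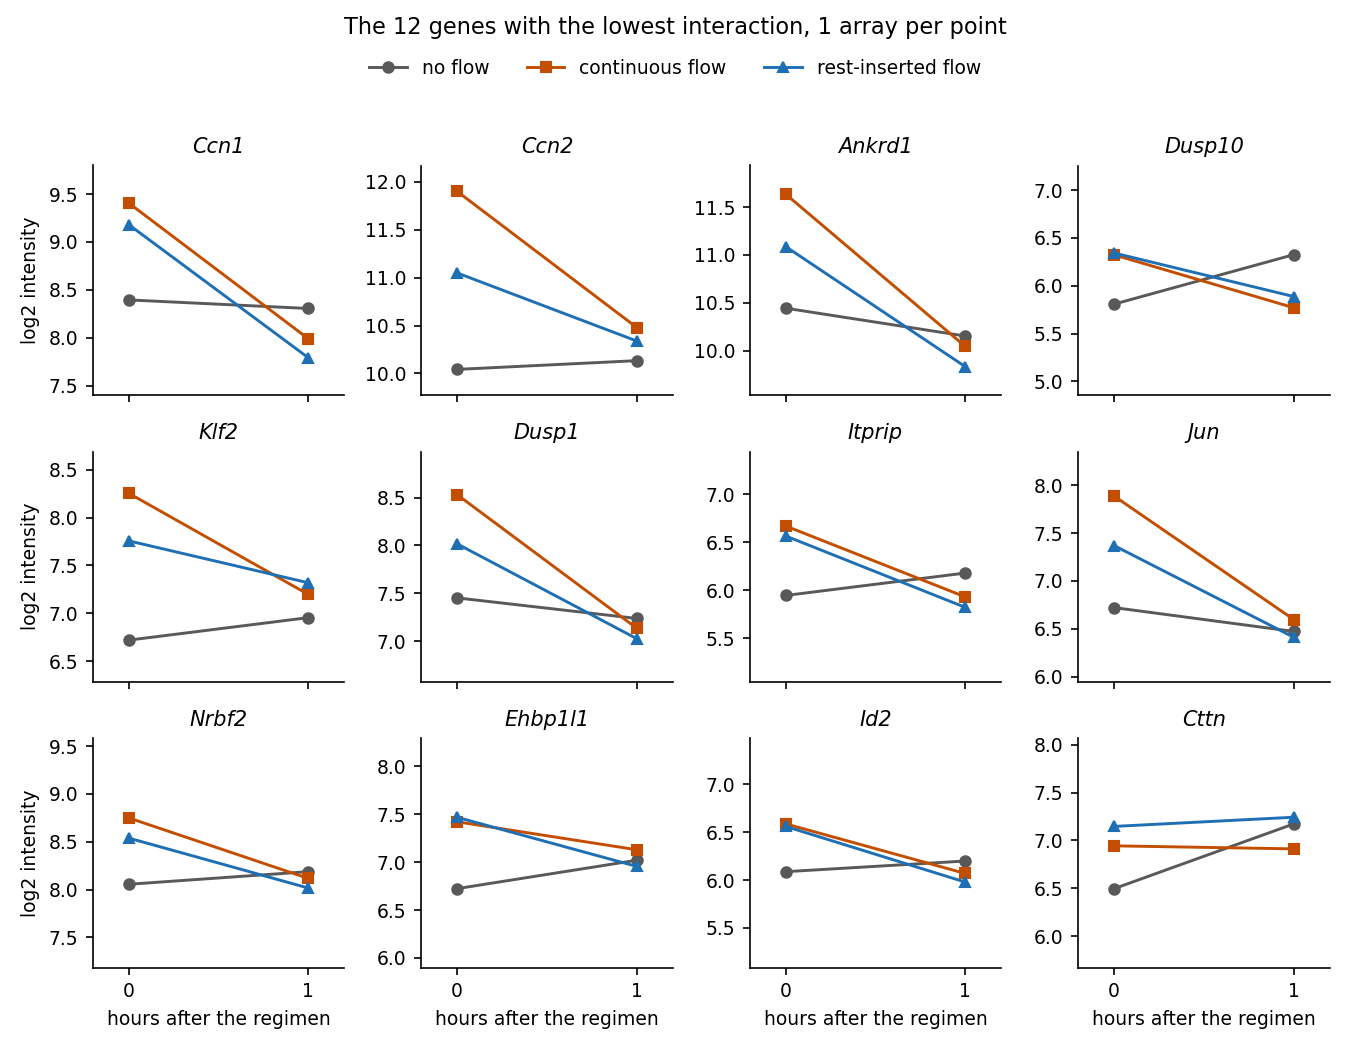
Log2 intensity (vertical axis) of the 12 genes with the lowest interaction at 0 h and 1 h after the regimen (horizontal axis), with 1 point per array and lines joining the arrays of no flow (circles), continuous flow (squares) and rest-inserted flow (triangles). Every panel spans the same number of log2 units. Both flow arrays lay above no flow at 0 h in 12 of 12 genes and below it at 1 h in 7.

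Among the targets of SRF and YAP, 32 of 44 listed genes were in the table. Their median interaction was -0.086 beside -0.001 for all genes, and 23 of the 32 were below 0 (50.3% of all genes were), but the median was 0.033 with median scaling (0.085 for all genes). The list's low end held Ccn1, Ccn2, Ankrd1 and Srf, the 4 genes at or below -0.5 (12.5%, beside 0.647% of all genes). Srf itself, the transcription factor, had 8.74, 9.55 and 9.12 at 0 h in the same order and 8.48, 8.37 and 8.59 at 1 h, with an interaction of -0.92 for continuous and -0.27 for rest-inserted flow. Tagln, an actin-binding protein of contractile cells, had 0.68 over no flow at 0 h and 0.29 at 1 h. Actb, the cytoskeletal beta-actin, was on the list with 0.07.

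Immediate early transcription factors had a median interaction of -0.16, with 18 of 40 listed genes in the table, 12 of them below 0 and 4 at or below -0.5 (22.2%, beside 0.647% of all genes). Their median over no flow was 0.21 at 0 h and 0.07 at 1 h. Both kinds of flow were above no flow in 11 of the 18 genes at 0 h and in 11 at 1 h. Over all 5718 genes this held for 1970 at 0 h and 1948 at 1 h, and both kinds share the no flow array of each time. With median scaling the median interaction was -0.075, beside 0.085 for all genes. The list was written with earlier results of these data known. Klf2, a Kruppel-like factor known from endothelium under flow, had 6.72, 8.25 and 7.76 at 0 h for no flow, continuous and rest-inserted flow and 6.95, 7.20 and 7.32 at 1 h. Its flow arrays stayed above no flow, with an interaction of -0.98 (SE 0.27, limma adjusted p = 0.785).

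Jun, a subunit of AP-1, had 6.72, 7.89 and 7.37 at 0 h and 6.47, 6.60 and 6.41 at 1 h, where the 3 arrays lay close together. Its interaction was -0.87 (SE 0.30, limma adjusted p = 0.785). Junb, its close relative, had 6.44, 6.99 and 6.99 at 0 h and 6.57, 6.63 and 6.58 at 1 h, so that both flow arrays were near no flow after the hour. Egr2, a zinc finger factor of the growth response, had an interaction of -0.48. In the other direction, Klf4, a factor of the same family as Klf2, was 0.08 over no flow at 0 h and 0.42 at 1 h. Bhlhe40, a repressor that also acts in the clock, had interactions of 0.42 for continuous and 0.03 for rest-inserted flow.

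Genes that restrain signaling did not share one direction. Of 17 inhibitors of MAP kinase and receptor signaling in the table, 8 were below 0 and 9 above, with a median of 0.03. This median was 0.13 with median scaling, and it was negative with no filter on intensity (-0.22) or on leaving out either continuous flow at 0 h (-0.038) or rest-inserted flow at 1 h (-0.048). The low end held Dusp10, a phosphatase of the p38 and JNK kinases, and Dusp1, which acts on p38, JNK and ERK. Dusp1 had 7.45, 8.53 and 8.02 at 0 h for no flow, continuous and rest-inserted flow and 7.24, 7.13 and 7.03 at 1 h. Its interaction was -0.98 (SE 0.28, limma adjusted p = 0.785), with both flow arrays highest at 0 h and lowest at 1 h. Dusp10 had 5.81, 6.32 and 6.34 at 0 h and 6.32, 5.77 and 5.89 at 1 h. In Dusp10 the no flow array was higher by 0.52 at 1 h, about the size of the difference in the flow arrays (-0.50), and a further probe gave an interaction of -0.50 where the brightest gave -1.02. Errfi1, an inhibitor of the EGF receptor, had an interaction of -0.45, and Rgs4, a regulator of G protein signaling, of 0.38.

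Of 16 genes in the table known from mRNA decay or as antiproliferative early genes, 1 was at or below -0.5. This was Zfp36, tristetraprolin, which binds AU-rich elements and speeds mRNA decay. Its values were 7.18, 7.78 and 7.65 at 0 h for no flow, continuous and rest-inserted flow and 7.02, 7.05 and 6.93 at 1 h, an interaction of -0.57 with either kind of flow. Ier3, a stress-response gene, had -0.50. The list's median was -0.008, close to all genes both here and with median scaling (0.077 beside 0.085), and it was positive also with genes above a mean log2 of 7 (0.0097) and with the mean of all probes of a gene (0.023).

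Secreted early ligands and enzymes had a median of -0.12, with 13 of 16 genes below 0. With median scaling it was -0.017, beside 0.085 for all genes. Plau, the urokinase plasminogen activator, had an interaction of -0.50 and Plaur, its receptor, of -0.41. At the other end were Ccl7, a chemokine, at 0.43, and Adamts4, an aggrecan-cleaving protease, at 0.58. Ccn1 and Ccn2 belong to this list too, and the lists therefore overlap.

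Targets of TGF-beta and BMP had a median of -0.12, with 16 of 19 below 0 and 3 at or below -0.5 (Ccn2, Id2 and Junb, 15.8% beside 0.647% of all genes). Earlier results of these data were known when this list was written too, so these shares are a description. The list's median was -0.026 with median scaling, -0.05 with genes above a mean log2 of 7, and -0.22 without the rest-inserted flow array of 0 h. Id2, an inhibitor of bHLH transcription factors, had 6.09, 6.59 and 6.56 at 0 h for no flow, continuous and rest-inserted flow and 6.20, 6.07 and 5.98 at 1 h. Its brightest probe had an interaction of -0.66 and another probe one of -0.15. Id1 was 0.27 over no flow at 0 h and -0.16 at 1 h, and Tgif1, a repressor of TGF-beta signaling, 0.15 and -0.33. The ligand Tgfb2 lay at the opposite end with an interaction of 0.67. It had 6.70, 6.36 and 6.26 at 0 h for no flow, continuous and rest-inserted flow and 6.15, 6.59 and 6.27 at 1 h, with the no flow array highest at 0 h and lowest at 1 h.

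**Figure D2:**
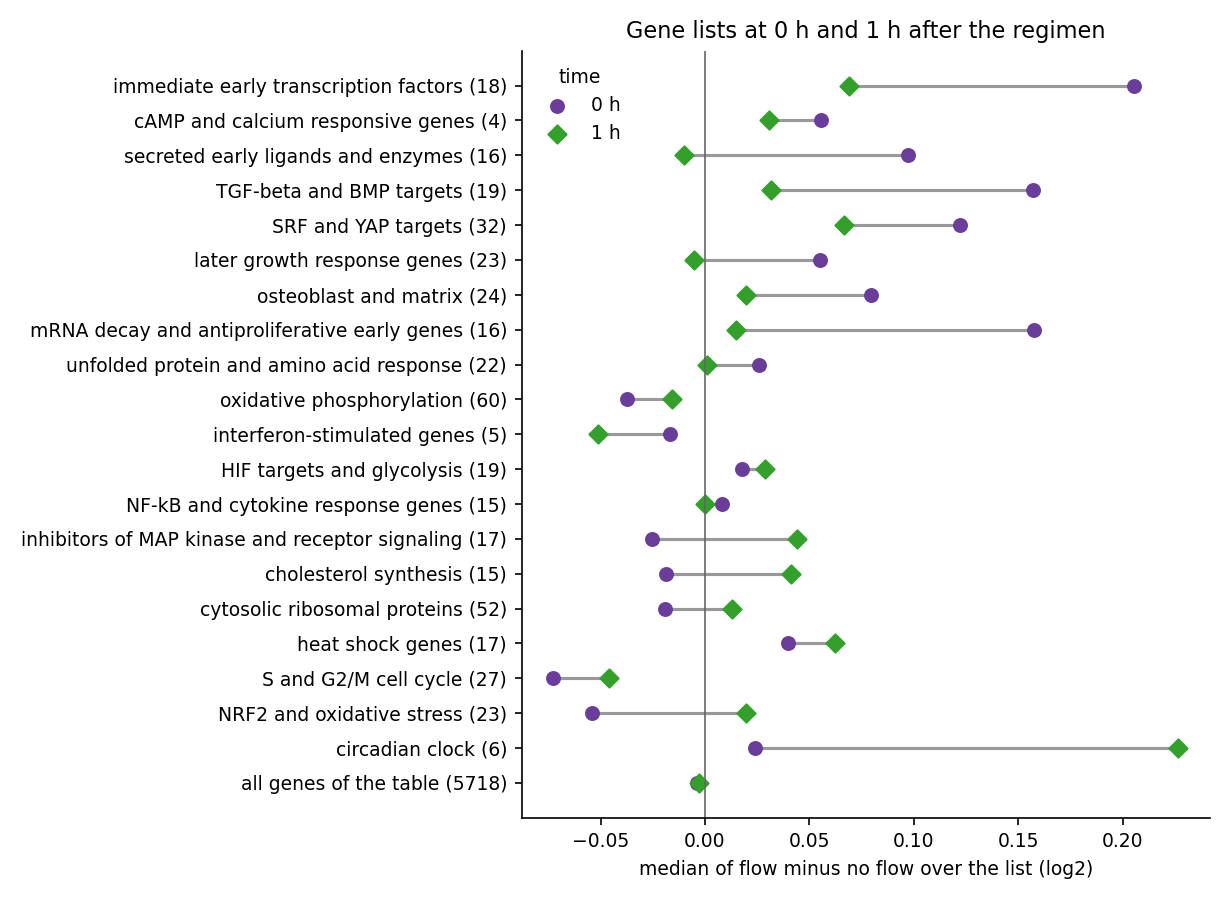
Median of flow minus no flow (log2, horizontal axis) over each gene list at 0 h (circles) and 1 h (diamonds), with the number of genes in the table after each name and lists ordered by their median interaction. The median of the immediate early transcription factors was 0.21 at 0 h and 0.07 at 1 h, and that of all genes was near 0 at both times, while with median scaling all genes lay at -0.098 and -0.013.

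The 6 clock genes in the table had a median interaction of 0.20, which was 0.11 on leaving out continuous flow at 1 h and 0.083 over the 4 genes above a mean log2 of 7. Among them were Tef, a PAR bZIP factor, at 0.30 and Dbp, its relative, at 0.19. Of all genes 1.07% were at or above 0.5. Cytosolic ribosomal proteins had a median of 0.03 over 52 genes, 2 of them at or above 0.5 (Rps3a1 and Rpl7a, at 0.52 each). Oxidative phosphorylation had 0.01 over 60, with 2 genes at or above 0.5. The NRF2 and oxidative stress list had a median of 0.06. At or above 0.5 were 2 of its 23 genes, beside 1.07% of all genes. These were Me1, the NADP-dependent malic enzyme, at 0.66 and Txn1, thioredoxin, at 0.52. Heat shock genes had a median of 0.03, with 1 of 17 at or above 0.5, Hspb1, a small heat shock protein, at 0.56.

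Later growth response genes had a median of -0.075, osteoblast and matrix genes -0.062 and the 4 cAMP and calcium responsive genes -0.15, and the first 2 of these medians were positive with median scaling (0.036 and 0.038, beside 0.085 for all genes). The third was -0.068 with median scaling and 0.023 with no filter on intensity. Lists of NF-kB response, HIF and glycolysis, unfolded protein response, cholesterol synthesis, S and G2/M phase and interferon response lay between 0.000 and 0.046, and 0 of their genes passed a size of 0.5 in either direction. The RT-PCR panel had 7 genes in the table, with a median of -0.18, 6 of 7 below 0 and values from -0.24 (Col1a1) to 0.20 (Sp7). This median was -0.095 with median scaling and -0.052 without the continuous flow array of 0 h. The panel, genes also assayed by RT-PCR, was the study's own choice and is not independent evidence of a direction.

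The remaining genes of the low end have varied roles. Itprip, which interacts with the inositol trisphosphate receptor, had 5.95, 6.67 and 6.57 at 0 h for no flow, continuous and rest-inserted flow and 6.18, 5.93 and 5.82 at 1 h. Its flow arrays were highest at 0 h and lowest at 1 h, with an interaction of -0.98 for either kind of flow. Nrbf2, a subunit of an autophagy kinase complex, had an interaction of -0.71, and Ehbp1l1 of -0.70. Cttn, the actin regulator cortactin, had 6.50, 6.94 and 7.15 at 0 h and 7.17, 6.91 and 7.24 at 1 h. In Cttn the flow arrays differed by only 0.03 between the times and the no flow arrays by 0.68, and its 3 other probes had interactions of -0.27, 0.00 and -0.07.

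The difference between 0 h and 1 h was also tested in the flow arrays alone, without the no flow arrays. limma called 3 genes (0.0525% of 5718), all lower at 1 h, and 940 (16.4%) passed an unadjusted p of 0.05. Ccn1 fell by 1.41 (SE 0.10, limma adjusted p = 0.030) against -0.09 in no flow. Lmcd1, a LIM domain transcription cofactor, fell by 1.33 (limma adjusted p = 0.033), and Fmod, fibromodulin, a collagen-binding proteoglycan, fell by 0.65 (limma adjusted p = 0.033), but their no flow arrays differed by -1.02 and -0.74. Their interactions were -0.30 and 0.09. With the constant variance prior, and without any 1 of the 4 flow arrays, 0 genes were called. With 0 h paired with 1 h in each regimen limma called 69 (1.21%), 57 lower (0.997%) and 12 higher (0.21%). The same 3 were among them, and also Ankrd1, Dusp1, Errfi1, Jun and Ccn2, which all had negative interactions. In that order, their no flow arrays differed by -0.29, -0.22, -0.55, -0.25 and 0.09. Other genes called as lower had positive interactions with continuous and rest-inserted flow, such as Slpi (0.15 and 0.36) and Mmp13 (0.18 and 0.52). A call for the flow arrays alone therefore does not give the sign of the interaction. For flow against no flow limma called 0 genes at 0 h, where 442 (7.73%) had an unadjusted p under 0.05, and 0 at 1 h, where 271 (4.74%) did. It called 0 for the change of the no flow arrays, with 496 (8.67%) at that level, and 4 (0.07%) with the pairing, Col2a1, Fmod, ND1 and Slpi.

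Whether the flow or the no flow arrays held the larger difference varied between the ends. The interaction is the change in flow minus the change without flow, so choosing its extremes favors a falling no flow array at the high end and a rising one at the low end, and the counts here are a description. The flow change is a mean over 2 arrays at each time and the no flow change rests on 1, which favors a larger difference without flow. Over all 5718 genes the flow arrays differed more in 46.0% and the no flow arrays in 54.0%. Of the 12 genes with the lowest interaction, the flow arrays differed more than the no flow arrays in 10, Dusp10 and Cttn being the exceptions. The median difference between 1 h and 0 h was -0.75 in their flow arrays and 0.12 in their no flow arrays. Of the 12 with the highest interaction the no flow arrays differed more in 7, and the no flow array of 1 h was lower than that of 0 h in 12 of 12, with a median of -0.46 against 0.34 in the flow arrays. Over the 61 genes at or above 0.5 the no flow arrays differed more in 40 and were lower at 1 h in 61, and over the 37 at or below -0.5 the flow arrays differed more in 20. The 2 no flow arrays also had the lowest and the highest number of values at the floor, and the part of this in the result was not tested.

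**Figure D3:**
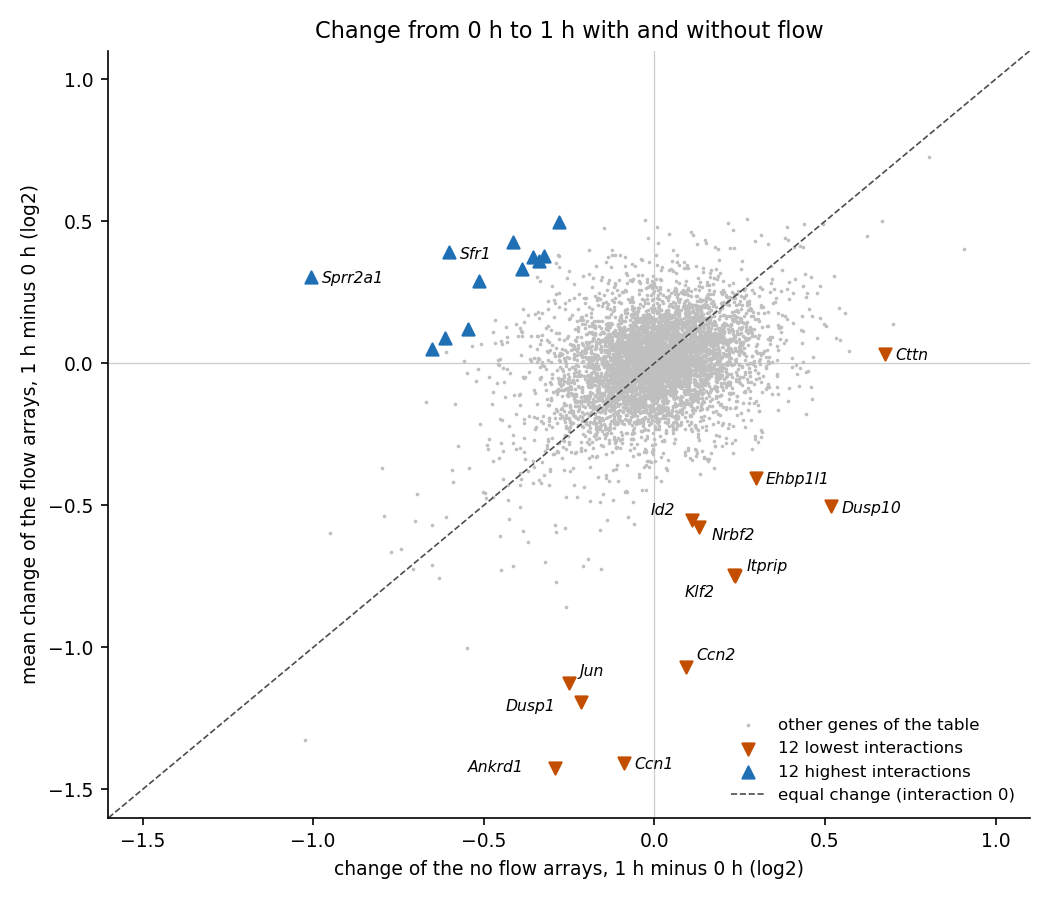
Mean change of the flow arrays (vertical axis) against the change of the no flow arrays (horizontal axis), 1 h minus 0 h on the log2 scale, for the 5718 genes (grey points), the 12 lowest (downward triangles) and the 12 highest interactions (upward triangles). The dashed line marks equal change, Ccn1 and Ankrd1 lie far below it with small changes in no flow, and Sprr2a1 lies farthest to the left among the marked genes.

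Sprr2a1, a small proline-rich protein known from the outer layer of skin, had the highest interaction, 1.31 (SE 0.18, limma adjusted p = 0.785). It had 6.61, 6.05 and 6.00 at 0 h for no flow, continuous and rest-inserted flow and 5.60, 6.33 and 6.32 at 1 h. No flow was the highest at 0 h and the lowest at 1 h. Sfr1, a factor of DNA repair by recombination, followed with 6.67, 6.16 and 6.27 at 0 h and 6.07, 6.66 and 6.55 at 1 h, an interaction of 0.99. ND1, a subunit of respiratory complex I encoded in mitochondrial DNA, was the one bright gene of this end, with 11.95, 11.57 and 11.63 at 0 h and 11.34, 11.68 and 11.70 at 1 h. Its interaction of 0.70 (SE 0.08, limma adjusted p = 0.537) lay mostly in the no flow arrays, which differed by -0.61, and the flow arrays by 0.09.

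**Figure D4:**
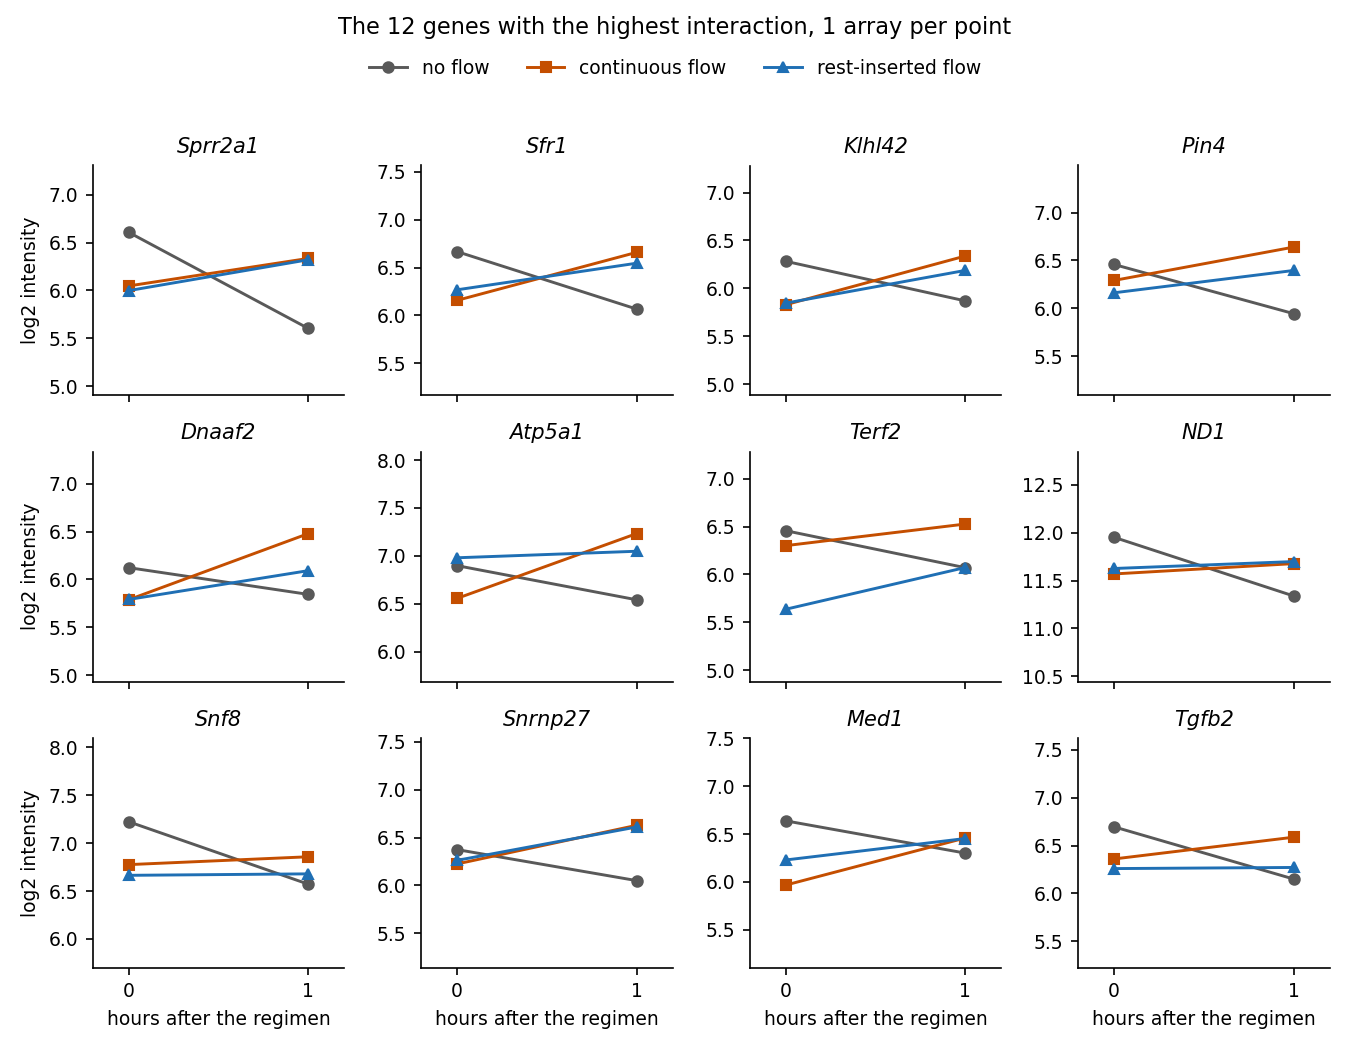
Log2 intensity (vertical axis) of the 12 genes with the highest interaction at 0 h and 1 h after the regimen (horizontal axis), with 1 point per array and symbols for no flow (circles), continuous flow (squares) and rest-inserted flow (triangles). The no flow array of 1 h was below that of 0 h in 12 of 12 genes.

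The other genes of the high end were Klhl42, an adaptor of ubiquitin ligase, at 0.84, Pin4, a peptidyl-prolyl isomerase, at 0.80, Dnaaf2, which assembles dynein arms, at 0.78, and Atp5a1, the alpha subunit of ATP synthase, at 0.73. Terf2, a telomere-binding protein, had 0.72, Snf8, of the endosomal sorting complex, 0.70, Snrnp27, of the spliceosome, 0.70 and Med1, of the Mediator complex, 0.70. Of the 12 genes of this end, 3 had another probe detected on all arrays, and 1 of the 3 probes had the same sign (Klhl42), whereas Terf2 and Med1 had -0.07 and -0.12. At the low end 6 genes had 9 such probes, of which 8 had the same sign.

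Dim genes supplied most of the extremes. The SD of the interaction over genes was 0.242 in the 1430 dimmest genes of the table and 0.129 in the 1430 brightest. The dimmest held 21 of the 37 genes at or below -0.5 and 39 of the 61 at or above 0.5. Ccn2 and Ankrd1 were the 2 genes at or below -0.5 among the brightest.

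Trajectories were grouped by whether flow minus no flow was beyond 0.25 at each time, a level chosen after the values were seen. Of the members, 3390 (85.4%) were within it at both times. Another 173 were above at 0 h and within it at 1 h, among them Ankrd1, Dusp1, Jun and Id2, and 167 were below at 0 h and within it at 1 h, among them Snf8 and Med1. Flow was above at 0 h and below at 1 h in 6 (Ccn1, Dusp10, Itprip, Zfp869, Vgll4 and Cep89), and below and then above in 14, with Sprr2a1 and Sfr1 leading. In 11 it was above at both times, with Ccn2, Klf2 and Tagln among them, and in 2, Tfe3 and Cyp26b1, below at both. At 1 h only, 114 were above and 92 below. These genes outside the named ends were picked after their values were seen.

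**Figure D5:**
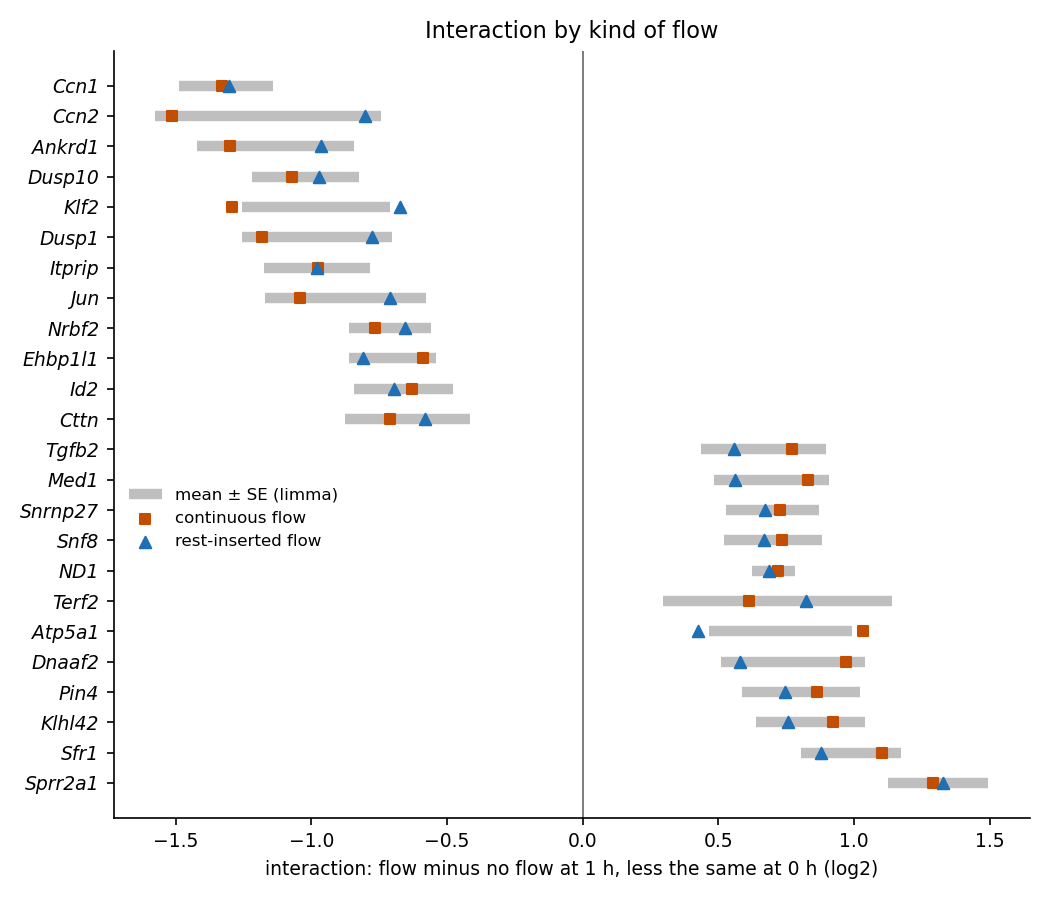
Interaction (log2, horizontal axis) of the 12 lowest and 12 highest genes for continuous flow (squares) and rest-inserted flow (triangles), with the mean of both and its limma standard error as grey bars. Ccn2 had -1.51 and -0.80 and Klf2 -1.29 and -0.67, whereas Ccn1 and Itprip had nearly equal values.

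The 2 kinds of flow had unlike interactions in some genes, and each condition is 1 array, so this was not tested. The regimens also differ in their time under flow. By schedule 10 min of rest follow the last rest-inserted bout, so 0 h may not be the same time since flow in both. Ccn2 had -1.51 with continuous and -0.80 with rest-inserted flow, Klf2 -1.29 and -0.67, Dusp1 -1.18 and -0.78, and Jun -1.04 and -0.71. Ccn1 had -1.33 and -1.30 and Itprip -0.98 with both. Of the 12 lowest genes, 9 had the larger size with continuous flow, and 10 of the 12 highest, but 18 of the 37 at or below -0.5, 35 of the 61 at or above 0.5 and 52.4% of all genes did. Both values of a gene rest on the same no flow arrays. Of the genes that were not members, Sec23ip, of vesicle traffic, had 0.04 and -0.92, and St6galnac2, a sialyltransferase, 0.74 and -0.13. RNA came from whole cultures, in which fewer responding cells and less RNA per cell cannot be told apart.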

How the data were processed

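MC3T3-E1 RNA of 6 conditions was measured on 1 array each. The deposited intensity values are signals from which the authors subtracted background in GenomeStudio. For the deposited log2 values the authors quantile normalized the arrays, raised values under 10 to 10, took log2 and kept 15686 of 45281 probes with a detection p-value under 0.01 on at least 1 array. Repeating this from the deposited intensities gave the same values (largest difference 5.0e-08). In 1 deposited p-value column 25281 entries repeat the signal, and detection there was taken from the signal. Of the probes, 13183 carried 1 usable gene name (8566 genes). No genome build is needed for these values, and gene positions and promoters are those of RefSeq GRCm38.p6.

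Probes were tested in limma 3.58.1 (R 4.3.3) with a variance prior following intensity and 2 residual degrees of freedom, which also hold any real difference between the 2 kinds of flow. On simulated data with noise set by intensity alone, the fit recovered 92.5% of 200 probes with an interaction of 1 among 15686 (8 false calls) and 20% at 0.5 (0 false calls). The constant prior recovered 0% of either in this setting. Probes of like intensity were given equal noise, which favors the prior that follows intensity. These shares therefore do not carry over to the real arrays, and they do not tell how to read the count of 0 under the constant prior. A fit pairing the 2 times within each regimen, added after the data were seen, recovered 96% (14 false calls) and 39% (1 false call). The simulated noise was independent between all arrays, with nothing shared within a regimen. Recovery there cannot tell whether pairing suits the real arrays. Alternatives were the constant prior, median scaling, a floor of 32, other intensity filters, the mean of a gene's probes, adjustment over the table's genes and leaving out each flow array.

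Genes named are the 12 members at each end detected on all arrays, up to 5 genes of each list with the largest interaction, genes called, the RT-PCR panel and the genes nearest the minimum. Others were chosen after their values were seen. The members, lists, which share genes, and the prior were chosen with earlier results of these data known.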

Additional observations from a re-analysis of the deposited data

How the results depend on the processing

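Over the 119 genes named, 18 of 1250 values under alternatives had the other sign, but these genes were chosen for their size and several alternatives leave a gene's value as it was. The interaction of Ccn1 ran from -1.43 to -1.20 over its alternatives (without the pairing, limma adjusted p from 0.294 to 0.827), and 0 genes were called for the interaction under the alternatives run, with 147 to 502 at an unadjusted p under 0.05, except for the pairing of 0 h with 1 h within each regimen. The 147 were of 5718 genes with the constant prior, and the 502 of 8566 genes with no filter on intensity. The paired analysis, added after seeing the data, called 3 for the interaction, 69 for the change of the flow arrays and 4 for that of the no flow arrays. In it 377, 1004 and 531 of 5718 genes had an unadjusted p under 0.05. Of the 3 genes called for the change of the flow arrays, 0 were called with the constant prior and 0 without any 1 of the flow arrays, and 3 genes were called with median scaling. The counts of genes at or below -0.5 and at or above 0.5, added after seeing the data, come from tables of unlike size. They were 17 and 106 of 5720 genes with median scaling, and 17 and 23 of 4388 with a mean log2 above 7. With no filter they were 456 and 506 of 8566. Leaving out a flow array gave 41 to 57 at the low end, the most without the rest-inserted flow array of 1 h, and 60 to 82 at the high end. Members numbered from 3049 of 4388 genes with a mean log2 above 7 to 5941 of 8566 with no filter, over the filters, scaling and probe rules. Leaving out an array gives them no value. Of 220 medians of gene lists under alternatives, 27 had the other sign (with median scaling the median of all genes turned as well, to 0.085), and those of the immediate early transcription factors ran from -0.21 to -0.056. Without a no flow array the interaction has no value, so the weight of each could not be measured.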
